A study of Mus musculus with 8 samples.

Results

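The genes described here are 10 receptors and adaptors that bind immunoglobulin or signal with such receptors, namely Faim3, Pigr, Fcgr1, Fcgr2b, Fcgr3, Fcer2a, Fcrla, Fcer1g, Tyrobp and Lilrb4. They are 10 of the 38918 gene rows of the table and were chosen by name, with their difference between the libraries already known. That difference is therefore given as a description, with no test. RNA was taken from BMiFLT3 (15-3) cells, a mouse pro-B line derived from a precursor leukaemia, after infection with a Klf2 retrovirus or with a BFP control retrovirus. Klf2 encodes a zinc-finger transcription factor. The name BFP also stands in the columns of the Klf2 lanes, and what that says of the Klf2 construct is not given. The labels give neither a clone nor a time after infection, and they name 2 library kits without assigning them, so kit and construct cannot be told apart. Each group is 4 sequencing lanes of what the labels describe alike, taken as 1 library per group, and no difference below has a replicate check.

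Fc receptors bind the constant part of antibodies. Activating members signal through a partner chain with an ITAM, a tyrosine motif that recruits the kinase SYK, and Fcer1g and Tyrobp encode such chains. Inhibitory members carry an ITIM, a related motif that recruits phosphatases. B-lineage cells are known for the inhibitory receptor FCGR2B, the IgM receptor encoded by Faim3 and, in mature cells, the IgE receptor CD23 encoded by Fcer2a, while Fcgr1, Fcgr3, Fcer1g and Tyrobp are best known from myeloid and natural killer cells.

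The Klf2 library held 30835450 exon reads, 7682298 to 7741626 per lane, and the BFP library 30133978, 7506567 to 7588695 per lane. Levels are exon reads per 1000000 exon reads of the library (CPM), scaled with TMM, ratios are those of the Klf2 library over the BFP library, and brackets hold 95% exact intervals that cover counting error only. A gene passed the rule when it had at least 1 CPM in either library, a ratio at least 2-fold from 1 and an interval without 1. Klf2 itself was at 113 CPM in the Klf2 library and 10.1 CPM in the BFP library. Of 12 B-lineage markers 8 reached 1 CPM and none passed the rule, with Cd79a, Igll1 and Vpreb1 the most abundant at 903, 873 and 727 CPM in the Klf2 library and at 962, 611 and 488 CPM in the BFP library. Rag1 and Rag2, the recombinase genes that pro-B cells typically express, were nearly absent, with 1 and 4 reads in the Klf2 library and 1 and 7 in the BFP library, which goes against the pro-B label.

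Faim3, Pigr, Fcgr1, Tyrobp and Lilrb4 were lower in the Klf2 library, by 3.45-fold to 7.65-fold. Fcgr2b and Fcrla had ratios of 0.919 and 1.23, and Fcgr3, Fcer2a and Fcer1g stayed under 1 CPM in both libraries. Thus 7 of 10 members reached 1 CPM in either library, 5 of them were past the rule on the lower side and none on the higher side. Fcgr1 and Tyrobp reached 1 CPM through the BFP library alone. Among all 10850 genes with at least 1 CPM, 5.67% passed the rule as lower and 2.45% as higher. Because the members were picked from this contrast, nothing follows from their count against these shares. With the deposited RPKM the split over all genes was 128 higher and 559 lower, against 266 higher and 615 lower on TMM-scaled CPM. The RPKM split used a floor of 1 RPKM, which 9876 genes reached, and no interval, so the rules differ as well as the scaling.

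**Figure D1:**
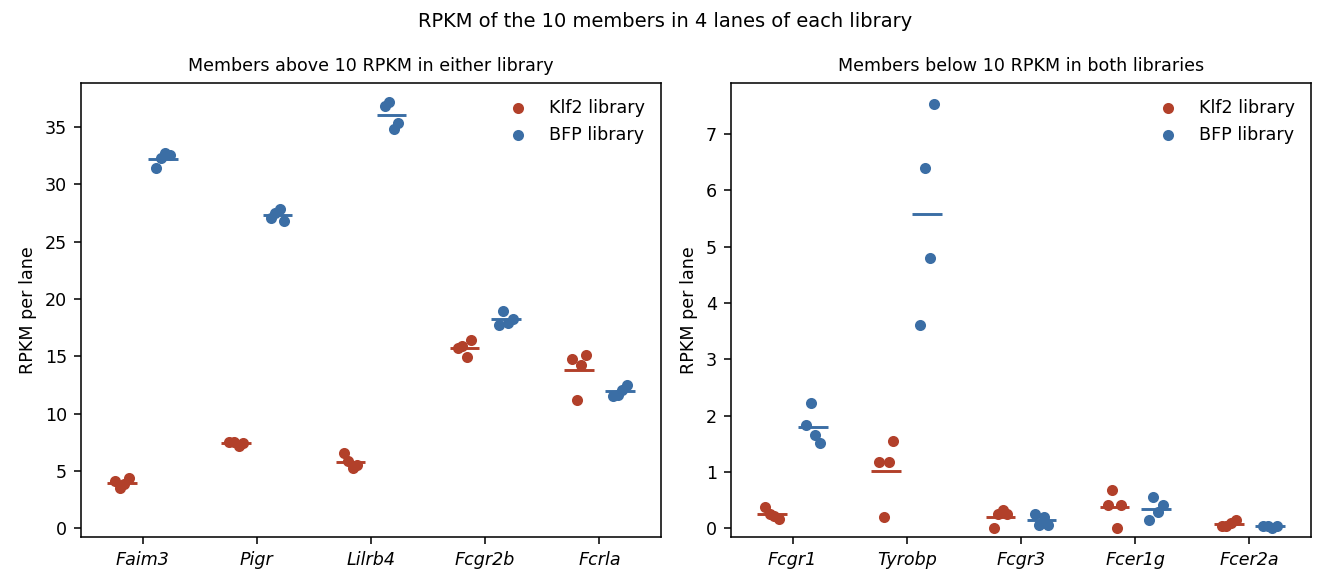
RPKM (exon reads relative to exon length and to the lane's gene reads) of the 10 members in each of 4 lanes of the Klf2 library, red, and of the BFP library, blue, with horizontal bars at the mean of the lanes and a separate scale in each panel. Lane values of Faim3, Pigr, Lilrb4, Fcgr1, Tyrobp and Fcgr2b did not overlap between the libraries, while those of Fcrla, Fcgr3, Fcer1g and Fcer2a did.

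Faim3 (now Fcmr) encodes the Fc receptor for IgM and lies on chromosome 1, 130865669 to 130880790 (mm10), on the plus strand, with 14 exons in the table. Its RPKM was 4.12, 3.50, 3.89 and 4.36 in lanes 1 to 4 of the Klf2 library, against 31.4, 32.3, 32.7 and 32.5 in the BFP library. Every Klf2 lane was far below every BFP lane, and lanes of a library differed little. The summed exon reads were 250 in the Klf2 library and 1989 in the BFP library, or 8.37 and 64.0 CPM, a ratio of 0.131 (0.114 to 0.149) and a 7.65-fold lower level (6.70 to 8.76). By log2(CPM + 1) difference, -2.79, Faim3 ranked 7 from the bottom of the 615 lower genes. All of its exon reads were uniquely placed. Reads across exon junctions, which come from spliced RNA, were 62 in the Klf2 library and 585 in the BFP library, a ratio of 0.110 (0.0835 to 0.143).

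Pigr encodes the polymeric immunoglobulin receptor, which carries IgA and IgM across epithelia. It lies 13.4 kb upstream of Faim3, at 130826684 to 130852249 on the same strand, with 15 exons. Its RPKM was 7.54, 7.56, 7.22 and 7.41 in the Klf2 lanes, against 27.1, 27.5, 27.9 and 26.8 in the BFP lanes. The lanes of the libraries were again fully apart. The sums were 1087 reads in the Klf2 library and 3907 in the BFP library, at 36.4 and 126 CPM, a ratio of 0.290 (0.270 to 0.310). Reads of the gene outside its exons were 130 in the Klf2 library and 855 in the BFP library, a ratio of 0.158 (0.131 to 0.190), so this interval lay below that of the exon reads. For Faim3 such reads were only 7 in the Klf2 library and 19 in the BFP library.

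The promoter windows of both neighbours are shown because both genes were lower together. They are RefSeq sequence of GRCm38.p6, the build of mm10, from 250 bases before to 50 bases after the RefSeq gene start, both on the plus strand, and capitals mark CACCC or its reverse complement GGGTG, a core of KLF binding sites. The RefSeq start of Faim3 lies inside the gene as the table gives it.
Faim3, chr1:130865527-130865826: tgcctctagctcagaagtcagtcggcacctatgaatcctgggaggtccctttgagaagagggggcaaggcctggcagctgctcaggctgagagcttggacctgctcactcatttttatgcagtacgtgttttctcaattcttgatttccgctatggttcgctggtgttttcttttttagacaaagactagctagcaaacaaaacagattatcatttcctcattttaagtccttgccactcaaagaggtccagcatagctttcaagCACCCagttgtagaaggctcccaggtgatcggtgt
Pigr, chr1:130826434-130826733: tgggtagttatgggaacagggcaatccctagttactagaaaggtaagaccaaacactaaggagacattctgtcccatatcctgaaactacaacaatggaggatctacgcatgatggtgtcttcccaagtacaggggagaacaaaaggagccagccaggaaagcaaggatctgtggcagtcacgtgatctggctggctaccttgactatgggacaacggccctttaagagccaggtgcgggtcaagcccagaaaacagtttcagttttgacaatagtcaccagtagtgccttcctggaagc
The Faim3 window held 1 match, starting at base 266 of the window, and the Pigr window held none. Of 32851 promoter windows of this length, 57.5% held a match on either strand, so the motif is common. A match in a window is a run of letters and not a shown binding site.

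Among the IgG receptors, Fcgr1 was lower and Fcgr2b was not past the rule. Fcgr1 encodes the high-affinity IgG receptor CD64 and lies on chromosome 3, 96282909 to 96293969, on the minus strand, with 6 exons. It had 9, 6, 5 and 4 exon reads in the Klf2 lanes, against 42, 51, 38 and 35 in the BFP lanes, so every Klf2 lane was lower. The sums of 24 in the Klf2 library and 166 in the BFP library gave 0.803 and 5.34 CPM and a ratio of 0.150 (0.0937 to 0.232). Reads outside its exons, 27 in the Klf2 library and 100 in the BFP library, gave a ratio of 0.281 (0.177 to 0.433).

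Fcgr2b, the inhibitory IgG receptor of B cells, lies on chromosome 1, 170960558 to 170976547, on the minus strand, with 18 exons. Its RPKM was 15.7, 15.9, 15.0 and 16.4 in the Klf2 lanes and 17.7, 19.0, 17.9 and 18.3 in the BFP lanes. The Klf2 lanes all lay just below the BFP lanes. The sums were 2202 reads in the Klf2 library and 2494 in the BFP library, a ratio of 0.919 (0.867 to 0.973), while reads outside exons, 805 and 790 in the same order, gave 1.06 (0.960 to 1.17). The GENCODE annotation places an antisense gene, Gm38204, across its start, and whether counting used strand is not given in the sources used here. Fcgr3, the activating IgG receptor that pairs with the Fcer1g chain, had 13 reads in the Klf2 library and 9 in the BFP library, of which 76.9% and 55.6% were uniquely placed, and no difference could be read at that depth (ratio 1.503, 0.594 to 3.98).

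Fcrla and Fcer2a, both known from B cells, were not past the rule. Fcrla encodes an Fc receptor-like protein that stays inside B cells and lies 33.0 kb from Fcgr2b, at 170917576 to 170927583 on the minus strand. It had 235, 177, 225 and 241 exon reads in the Klf2 lanes and 179, 180, 187 and 195 in the BFP lanes. In these reads, before TMM scaling, 3 of the Klf2 lanes were above all BFP lanes and lane 2 was just below them. The sums of 878 and 741 gave 29.4 CPM in the Klf2 library and 23.8 CPM in the BFP library, a ratio of 1.23 (1.12 to 1.36). Reads outside its exons gave 1.65 (1.41 to 1.93), and junction reads, 135 in the Klf2 library and 152 in the BFP library, gave 0.924 (0.727 to 1.17), so the kinds of read fell on both sides of 1. Fcer2a, on chromosome 8 at 3681737 to 3694174, had 7 reads in the Klf2 library and 3 in the BFP library, with none across a junction in either. Its ratio of 2.43 had an interval from 0.554 to 14.6.

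The promoter windows of these receptors are shown to set a lower member, Fcgr1, beside a pair that was not past the rule, Fcgr2b and Fcrla. All are on the minus strand and read in the direction of the gene, with the same source and the same capitals as above. The Fcgr2b window lies wholly inside the gene as the table gives it.
Fcgr1, chr3:96293920-96294219: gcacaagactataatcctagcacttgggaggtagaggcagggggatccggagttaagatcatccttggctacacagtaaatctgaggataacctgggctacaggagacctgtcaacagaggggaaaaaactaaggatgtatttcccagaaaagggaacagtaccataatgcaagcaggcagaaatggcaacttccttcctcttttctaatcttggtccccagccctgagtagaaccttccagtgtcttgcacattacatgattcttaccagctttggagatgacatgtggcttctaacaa
Fcgr2b, chr1:170976022-170976321: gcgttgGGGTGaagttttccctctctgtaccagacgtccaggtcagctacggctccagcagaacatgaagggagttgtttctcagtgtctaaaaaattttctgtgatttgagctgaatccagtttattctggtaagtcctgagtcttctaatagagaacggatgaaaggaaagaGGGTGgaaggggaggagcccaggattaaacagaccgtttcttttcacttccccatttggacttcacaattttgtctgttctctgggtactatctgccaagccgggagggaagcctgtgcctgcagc
Fcrla, chr1:170927534-170927833: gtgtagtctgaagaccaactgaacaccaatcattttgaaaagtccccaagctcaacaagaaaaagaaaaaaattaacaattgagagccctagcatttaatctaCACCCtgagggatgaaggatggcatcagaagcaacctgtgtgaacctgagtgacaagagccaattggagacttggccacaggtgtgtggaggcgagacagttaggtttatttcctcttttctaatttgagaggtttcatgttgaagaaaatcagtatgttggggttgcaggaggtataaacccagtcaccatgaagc
The CACCC motif was absent from the Fcgr1 window, present at 2 places in the Fcgr2b window (bases 7 and 175, both as GGGTG) and at 1 place in the Fcrla window (base 104). Thus the lower members Faim3, Pigr and Fcgr1 held 1, 0 and 0 matches and the other pair 2 and 1. Of 2 further motifs searched on both strands, GAGGAA, a core of PU.1 sites, was found once each in the Faim3, Fcgr1 and Fcrla windows (28.3% of all windows). The STAT site TTCNNNGAA was found once each in the Pigr and Fcgr1 windows (8.30% of all windows). No matches of the 3 motifs overlapped each other in these windows. Of the members under 1 CPM, searched in the same way but not printed, Fcer2a held CACCC in each of its 3 windows and Fcer1g in its 1 window, and both Fcgr3 windows, which overlap, held GAGGAA. The Fcgr3 windows and windows 2 and 3 of Fcer2a also lie wholly inside the gene as the table gives it. Promoter windows were matched for 8 of 10 members, all but Tyrobp and Lilrb4.

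The ITAM chains Tyrobp and Fcer1g were both scarce, and Tyrobp was lower. Tyrobp encodes DAP12, the partner chain of TREM and natural killer receptors, and lies on chromosome 7, 30413788 to 30417577, on the plus strand, with 5 exons that sum to 564 bases. It had 6, 1, 6 and 8 exon reads in the Klf2 lanes, against 18, 32, 24 and 38 in the BFP lanes. Lanes did not overlap, although the BFP lanes themselves spanned 18 to 38. The sums of 21 in the Klf2 library and 112 in the BFP library gave 0.703 and 3.60 CPM and a ratio of 0.195 (0.116 to 0.313). Fcer1g encodes the common gamma chain of Fc receptors and lies on chromosome 1, 171229572 to 171234365, on the minus strand. It had 11 exon reads in the Klf2 library and 10 in the BFP library, a ratio of 1.14 (0.441 to 3.01). Reads outside its exons, 27 in the Klf2 library and 10 in the BFP library, gave a ratio of 2.81 (1.32 to 6.51). With these included its reads were 38 in the Klf2 library and 20 in the BFP library. Fcer1g then passed the rule as higher, at a ratio of 2.01.

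Lilrb4, an inhibitory receptor with ITIMs, was lower together with the overlapping gene Gp49a. The Lilrb4 row spans chromosome 10, 51480640 to 51496613, on the plus strand. In the GENCODE annotation this span holds Lilr4b (the Gp49a of the table), Lilrb4a and a joint gene, Gm49339, so the row is not Lilrb4a alone. Its RPKM was 6.57, 5.84, 5.26 and 5.52 in the Klf2 lanes, against 36.9, 37.2, 34.8 and 35.4 in the BFP lanes, fully apart. The sums were 314 reads in the Klf2 library and 1911 in the BFP library, at 10.5 and 61.5 CPM, a ratio of 0.171 (0.151 to 0.193). Uniquely placed were 71.0% of these reads in the Klf2 library and 69.5% in the BFP library, and they gave a ratio of 0.175 (0.151 to 0.202). More reads lay outside the exons than in them, 611 in the Klf2 library and 3253 in the BFP library, a ratio of 0.195 (0.179 to 0.213). Gp49a had 21 reads in the Klf2 library and 195 in the BFP library, a ratio of 0.112 (0.0678 to 0.176). Reads of the gp49 pair may be split between the rows by the authors' counting, and the rows are not separate evidence.

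**Figure D2:**
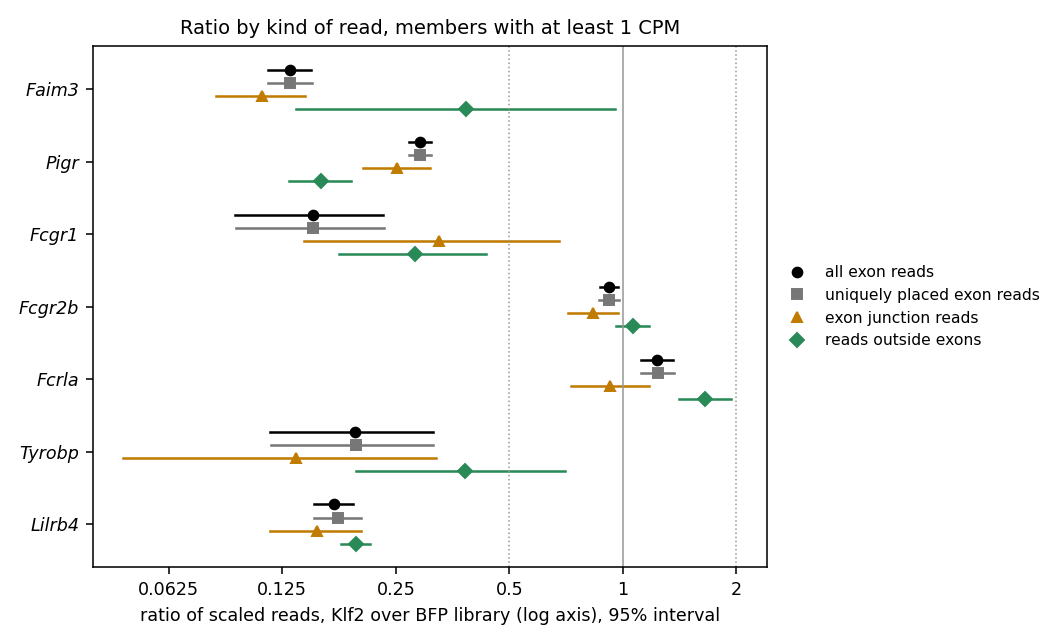
Ratio of scaled reads in the Klf2 library over the BFP library (log axis) for the 7 members with at least 1 CPM, from all exon reads, uniquely placed exon reads, exon junction reads and reads outside exons, with 95% exact intervals and dotted lines at 2-fold. Every ratio of Faim3, Pigr, Fcgr1, Tyrobp and Lilrb4 lies below 0.5, and those of Fcgr2b and Fcrla lie between 0.834 and 1.65.

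The order of the members by level per exon length differed between the libraries. In the Klf2 library the mean RPKM over lanes was highest for Fcgr2b at 15.7 and Fcrla at 13.8, whose lanes overlapped. Pigr at 7.43, Lilrb4 at 5.80 and Faim3 at 3.97 came next, with lanes apart from each other, and then Tyrobp at 1.02, whose lanes overlapped those of Fcer1g, Fcgr1 and Fcgr3. In the BFP library Lilrb4 at 36.1, Faim3 at 32.2 and Pigr at 27.3 stood above Fcgr2b at 18.2 and Fcrla at 11.9, all with lanes apart, and Tyrobp at 5.58 and Fcgr1 at 1.804 were below. In the Klf2 library Fcgr1 at 0.255, Fcer1g at 0.378 and Fcgr3 at 0.206 could not be ordered beyond the spread of lanes, nor could Fcer1g at 0.351 and Fcgr3 at 0.146 in the BFP library. Fcer2a had the lowest mean in both, at 0.0860 in the Klf2 library, where its lanes overlapped those of Fcgr3, and at 0.0375 in the BFP library, where they did not. The authors' deposited table gives signed folds of mean RPKM, with a minus sign where the Klf2 lanes are lower, of -8.13 for Faim3, -7.07 for Fcgr1, -6.22 for Lilrb4, -5.45 for Tyrobp and -3.67 for Pigr.

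Other genes of the same receptor system follow. Over all genes with at least 1 CPM, 8.12% passed the rule in either direction. Of 11 related Fc and immunoglobulin-binding receptors, 2 reached 1 CPM. Of these Fcrl1, an Fc receptor-like protein of B cells, was higher with 30 reads in the Klf2 library and 7 in the BFP library (ratio 4.46, 1.92 to 12.0). It reached 1.004 CPM, and its call was lost under total-count scaling, with the deposited RPKM, and without lane 2 or lane 3 of the Klf2 library. Trim21, a cytosolic antibody receptor, was at 7.86 CPM in the Klf2 library and 9.36 CPM in the BFP library. Fcgr4, Fcrl5, Fcgrt, Fcer1a and Ms4a2 had 0 reads in both libraries, which allows up to 0.0973 CPM in the Klf2 library and 0.0996 CPM in the BFP library from 3 reads over the total.

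Of 29 paired and ITAM-coupled receptors, 27 were in the table, 8 reached 1 CPM and 2 were past the rule, both lower. These were Gp49a, above, and Klrk1, the activating receptor NKG2D that can signal through DAP12, with 35 reads in the Klf2 library and 104 in the BFP library (ratio 0.350, 0.232 to 0.518). Treml2 at 182 CPM in the Klf2 library and 194 CPM in the BFP library and Cd72, an inhibitory co-receptor of B cells, at 91.4 and 68.6 CPM in the same order, were the most abundant. The triggering receptor gene Trem1 was at 2.58 CPM in the Klf2 library and 3.09 CPM in the BFP library, and the sialic acid receptor gene Cd33 at 3.41 and 1.83 CPM in the same order. The list median of the log2(CPM + 1) difference was 0.09, beside -0.01 over all genes.

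Of 7 other adaptor chain genes, 4 reached 1 CPM and none passed the rule. The B-cell receptor chains Cd79a and Cd79b had ratios of 0.939 (0.924 to 0.955) and 0.753 (0.722 to 0.786). Cd247 was at 1.47 CPM in the Klf2 library and 1.19 CPM in the BFP library. Only 22.7% of its reads in the Klf2 library and 10.8% in the BFP library were uniquely placed. On uniquely placed reads 3 of the chain genes reached 1 CPM. Hcst encodes DAP10, a chain that recruits PI3-kinase and has no ITAM. By coordinates it lies 0.139 kb beyond the end of Tyrobp, and its strand is not given here. Hcst was at 6.22 CPM in the Klf2 library and 7.81 CPM in the BFP library, a ratio of 0.796 (0.654 to 0.968). Tyrobp and its closest neighbour thus stood at ratios of 0.195 and 0.796. The list median was -0.19.

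Of 37 kinases, phosphatases and adaptors downstream, 33 reached 1 CPM, 3 were higher and 1 was lower, with a list median of 0.07. The Src-family kinases Fgr (45 reads in the Klf2 library and 5 in the BFP library) and Blk (27.5 CPM and 5.50 CPM in the same order) and the adaptor Lat (8.50 and 3.54 CPM) were higher. The Src-family kinase Fyn, at 124.9 CPM in the Klf2 library and 343 CPM in the BFP library, was lower. The phosphatase genes that ITIMs recruit were among the most abundant. Ptpn6, encoding SHP-1, was at 890 CPM in the Klf2 library and 753 CPM in the BFP library, and Inpp5d, encoding SHIP-1, at 459 and 352 CPM in the same order. Pik3cd, a PI3-kinase subunit, was at 1107 CPM in the Klf2 library and 1147 CPM in the BFP library, and Plcg2, a phospholipase of B-cell signalling, at 660 and 377 CPM. Tec and Gab2, named after their values were seen, had ratios of 0.504 and 0.508, just short of the rule.

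**Figure D3:**
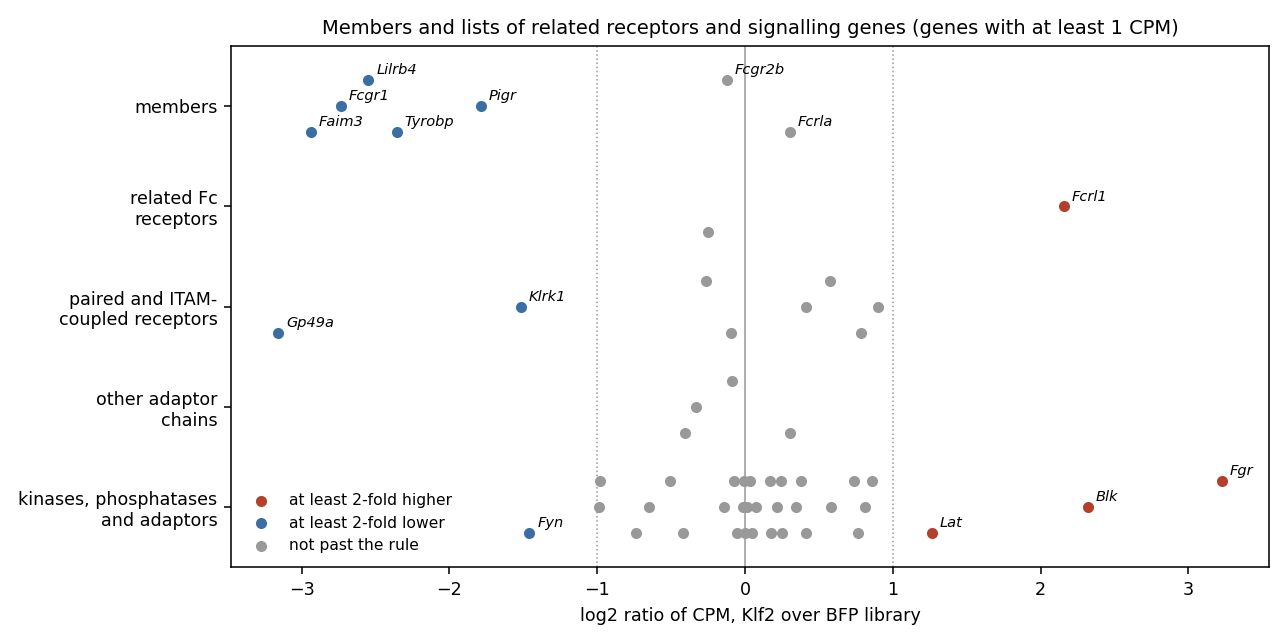
Log2 ratio of CPM, Klf2 library over BFP library, for members and genes of 4 lists with at least 1 CPM in either library, each point 1 gene and spread vertically for legibility, with dotted lines at 2-fold. Members past the rule are all on the lower side, and 29 of the 33 kinases, phosphatases and adaptors are not past the rule. Over all genes with at least 1 CPM, 8.12% passed in either direction.

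Genes next to the members are set beside all genes with at least 1 CPM. Of those, 5.67% passed the rule as lower and 2.45% as higher. Within 250 kb of a member there were 73 other genes with at least 1 CPM, of which 8 passed the rule, all lower. Near Faim3 or Pigr these were 2 of 7. Gm15848, which lies 2.60 kb before Pigr, had 12 reads in the Klf2 library and 48 in the BFP library (ratio 0.260, 0.126 to 0.497). Only 25% of these in the Klf2 library and 54.2% in the BFP library were uniquely placed, and those few reads gave a ratio of 0.120. C4bp, which encodes a complement-binding protein, was at 3.78 CPM in the Klf2 library and 9.23 CPM in the BFP library (ratio 0.410, 0.327 to 0.511). The ratios of the other 5 were below 1, up to 0.903, but the intervals of AA986860 (0.380 to 1.05) and Yod1 (0.439 to 1.16) included 1. Near Fcrla, Fcgr2b, Fcgr3 or Fcer1g none of 17 passed, with ratios from 0.565 to 1.55.

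Around Fcgr1, 2 of 12 neighbours passed, the histone genes Hist2h3c1 and Hist2h3c2, with 10 and 8 reads in the Klf2 library and 77 and 68 in the BFP library. No read of Hist2h3c1 was uniquely placed in either library, and both are uncertain. Around Tyrobp 2 of 26 passed, Cox7a1, a subunit of the respiratory chain, at 2.07 CPM in the Klf2 library and 5.79 CPM in the BFP library, and Arhgap33 at 52.3 and 120 CPM in the same order. Around Fcer2a 1 of 10 passed, the lysosomal channel gene Mcoln1, at 27.2 CPM in the Klf2 library and 61.4 CPM in the BFP library. The only measured neighbour of Lilrb4 was Gp49a.

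**Figure D4:**
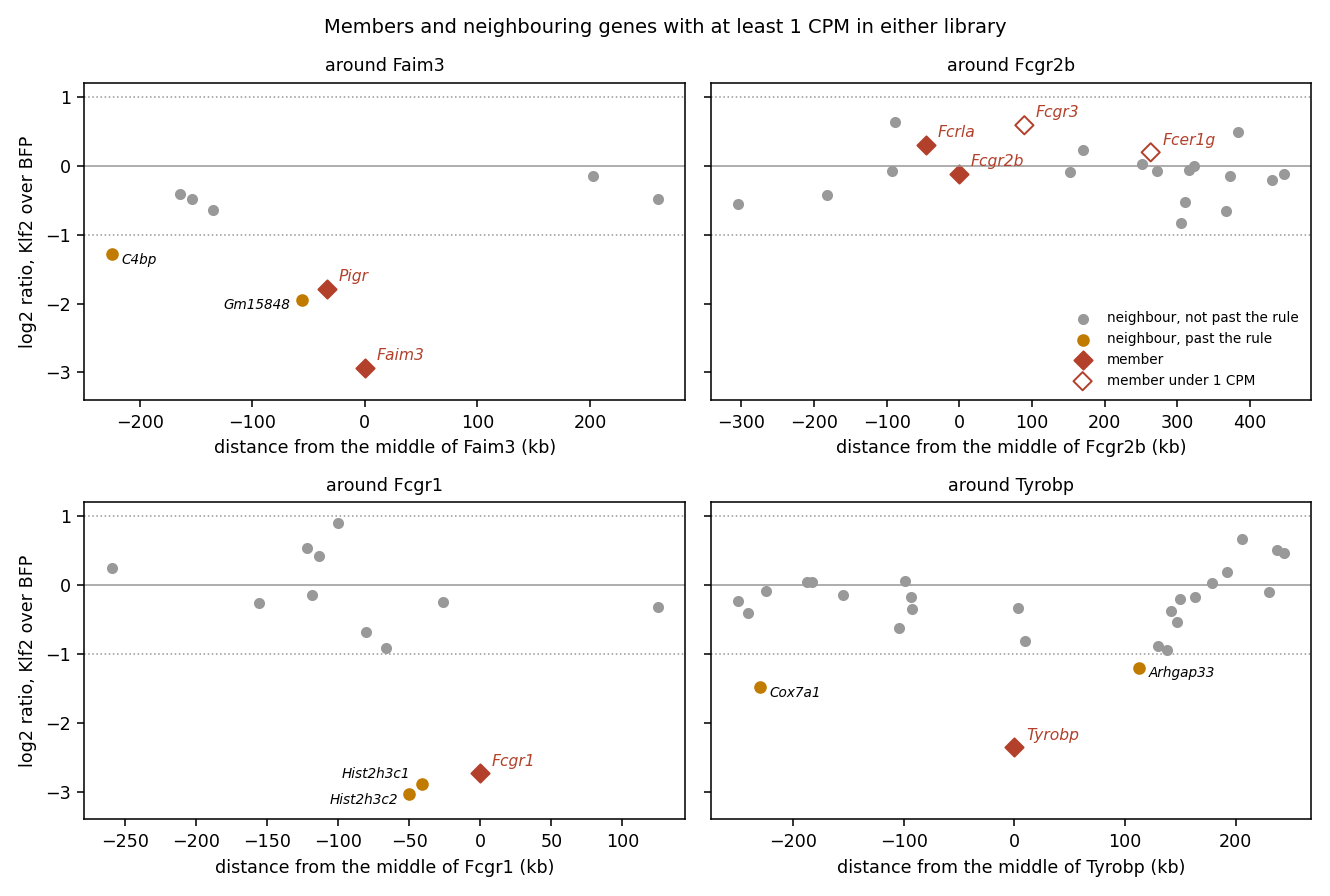
Log2 ratio of CPM, Klf2 library over BFP library, against distance in kb from the middle of Faim3, Fcgr2b, Fcgr1 or Tyrobp, for members (diamonds, open where under 1 CPM) and other genes within 250 kb of a member in that panel (circles, orange where past the rule, grey where not). Around Faim3, Pigr, Faim3, Gm15848 and C4bp lie below the lower 2-fold line, while the members and neighbours around Fcgr2b lie between the 2-fold lines.

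The genes whose ratio was nearest to that of Faim3, among 159 others past the rule with at least its summed reads, were Ccl3, Cd74 and Fam129a. The likeness is a distance between log2 ratios over 2 libraries, 0.11 for the chemokine gene Ccl3, 0.18 for the invariant chain gene Cd74 and 0.60 for Fam129a. Ccl3 was at 48.1 CPM in the Klf2 library and 398 CPM in the BFP library. Cd74 was at 10.9 and 73.9 CPM in the same order, and Fam129a at 40.1 and 202 CPM.

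Because Fcgr1, Tyrobp and Lilrb4 are also known from myeloid and natural killer cells, markers of such cells are given beside them. In these bulk samples fewer cells of a type and less RNA per cell cannot be told apart. Of 16 monocyte and macrophage markers, 5 reached 1 CPM. Before TMM scaling the lane sums were 17.1 to 20.5 CPM in the Klf2 library and 21.05 to 26.4 CPM in the BFP library. With TMM scaling the list sums over all lanes were 19.3 CPM in the Klf2 library and 22.4 CPM in the BFP library. Scaling brings the libraries closer, so the gap between the lane ranges is not read as a difference. Cd68, the most abundant, was at 7.33 CPM in the Klf2 library and 8.07 CPM in the BFP library. Ccr2 was lower, with 45 reads in the Klf2 library and 110 in the BFP library (ratio 0.426, 0.294 to 0.607). Csf1r and Cd14 were not past the rule, with ratios of 0.623 (0.456 to 0.844) and 0.543 (0.391 to 0.748). Intervals lay below 1 for 3 of the 5 markers, and for 4047 of all 10850 genes with at least 1 CPM. Mrc1 was higher, at 4.18 CPM in the Klf2 library and 1.74 CPM in the BFP library. C1qa, C1qb, C1qc and Marco were at 0 in both libraries.

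Of 8 natural killer markers only Klrk1 reached 1 CPM, and Ncr1, Prf1, Nkg7 and Gzma were at 0 in both libraries. Their summed level was 1.16 to 1.56 CPM per lane in the Klf2 library and 2.93 to 4.93 CPM in the BFP library. Of 10 neutrophil and 8 dendritic markers none reached 1 CPM, with Prtn3 and Xcr1 the most abundant at 0.435 and 0.368 CPM in the Klf2 library and 0.225 and 0.161 CPM in the BFP library. Their list sums stayed at or below 0.911 CPM in every lane. All list sums per lane in this paragraph are before TMM scaling, unlike the levels of single genes. Of 9 mast cell markers only Cpa3 reached 1 CPM, at 1.77 CPM in both, and the list sum was 1.68 to 2.33 CPM per lane in the Klf2 library and 1.73 to 2.13 CPM in the BFP library. The part of any such cells in the lower Fcgr1, Tyrobp and Lilrb4 was not tested.

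Markers of T cells, plasma cells and the erythroid and megakaryocytic lineages complete the set. Their list sums per lane are before TMM scaling, unlike the levels of single genes. The 8 T-cell markers summed to 15.0 to 17.1 CPM per lane in the Klf2 library and 8.12 to 8.57 CPM in the BFP library, with Cd3e, Cd4 and Cd8a at 0 in both. The 2 that reached 1 CPM were Lat, above, and Trac, at 6.96 CPM in the Klf2 library and 3.96 CPM in the BFP library (ratio 1.76, 1.40 to 2.22). The 6 plasma-cell markers summed to 933 to 952 CPM per lane in the Klf2 library and 958 to 982 CPM in the BFP library. With TMM scaling their sums over all lanes were 972 CPM in the Klf2 library and 938 CPM in the BFP library. The order of the libraries thus depended on the scaling. Of the 6 markers Xbp1 was the most abundant, at 485 CPM in the Klf2 library and 356 CPM in the BFP library, both with TMM scaling. Prdm1 was lower, with 3 and 33 reads in the same order. The 5 erythroid and megakaryocytic markers in the table summed to 1.82 to 2.21 CPM per lane in the Klf2 library and 2.26 to 3.43 CPM in the BFP library, with Itga2b highest.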

How the data were processed

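Poly(A) RNA was the input for HiSeq sequencing, per the labels' protocols. The submitters' processing notes list CASAVA 1.8.2 and mm10. Which aligner, counting program and gene models were used, and whether strand was, is not given in the sources used here. The authors deposited 1 table of 38918 rows. Per the file headers, the deposited counts hold, for each lane, reads in exons (total and uniquely placed), in genes, over junctions and over intron-exon borders. The RPKM values that the authors deposited were recomputed from these columns (largest difference 0.0258 RPKM). The authors' deposited fold change, per the file headers of original values, carries a sign and was treated as a score; for the members it is, to rounding, the ratio of mean RPKM, with a minus sign where Klf2 is lower. Of the table's rows, 10534 give no exon length.

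Exon reads of the 4 lanes of a group were summed to 1 library. Lane counts had a chi-square per degree of freedom of 1.27 in Klf2 and 1.29 in BFP, and 1.03 in each on uniquely placed reads. Uniquely placed were 83.3% of exon reads in Klf2 and 83.2% in BFP. TMM factors from edgeR 4.0.16 under R 4.3.3 were 0.969 for Klf2 and 1.03 for BFP. Intervals are exact Clopper-Pearson limits given the summed reads of a gene, reads carry no molecular identifiers, and no test of the conditions was possible. The script that makes the calls was checked on simulated counts with known folds, which is no test of the conditions. Alternatives were other scalings (total counts, DESeq2 1.42.0 size factors), kinds of read, floors, folds, lanes and a pseudocount of 0.5 CPM in place of 1.

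The members and lists were chosen with earlier results of these data known. Named genes are the members, Klf2, list genes past the rule with up to 4 abundant others of each list, neighbours past the rule, the most abundant markers and the 3 genes nearest to Faim3. Of 166 list symbols, 4 matched no row. Some lists share genes, such as Klrk1, Lat and Cd79a. Annotation is GENCODE and promoter sequence is RefSeq, both on GRCm38.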

Additional observations from a re-analysis of the deposited data

Results flagged for a closer look

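The exon reads of Fcer2a in the 4 BFP lanes were 1, 1, 0 and 1, and the lane at 0 stood apart from the others by 0.989 of the range of the lanes. By chance about 1 in 20 groups of continuous values would stand out this way, a rate that does not hold for counts of 0 and 1, and the gap here is a single read. No other member had a lane this far from the rest in either library.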

How the results depend on the processing

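The calls of all 10 members held under each of 13 alternatives of scaling, kind of read, unit and left-out lanes, except Fcer1g with all gene reads, which made 1 member higher. With a floor of 10 CPM the count of lower members was 3, since Fcgr1 and Tyrobp were then too low to be counted. Over these alternatives the ratio ranged from 0.123 to 0.136 for Faim3, 0.271 to 0.295 for Pigr, 0.124 to 0.203 for Fcgr1, 0.159 to 0.249 for Tyrobp and 0.161 to 0.190 for Lilrb4. It was 0.863 to 0.970 for Fcgr2b and 1.16 to 1.36 for Fcrla. No direction reversed among the members past the rule. With a pseudocount of 0.5 CPM the member calls are the same by construction, as calls use ratios.

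Of the list counts, related receptors higher was 0 under total-count scaling, with the deposited RPKM and with a floor of 10 CPM, and 0 to 1 with a lane left out. Paired receptors higher was 2 with a 1.5-fold threshold and 0 to 1 with a lane left out, and lower was 1 with the deposited RPKM and 0 with the floor of 10 CPM. Kinases, phosphatases and adaptors higher was 1 with that floor and 7 at 1.5-fold, and lower was 3 under total-count scaling and with RPKM, 5 at 1.5-fold and 1 to 2 with a lane left out. Neighbours lower were 2 with the floor of 10 CPM and 20 at 1.5-fold. Over all genes, higher calls were 128 with RPKM, 432 with no floor, 121 with the floor of 10 CPM and 1112 at 1.5-fold, and lower calls were 277 with that floor and 1505 at 1.5-fold. The higher floor tests fewer genes and the smaller fold admits more. Counts with RPKM use a floor of 1 RPKM and no interval. The cause of the other changes was not tested. Total-count scaling moved the median log2 ratio of all genes to -0.10, against -0.01 with TMM. No paired analysis was possible because the lanes are runs of 1 library per group and no result comes from a test. Fcgr3, Fcer2a and Fcer1g, with 3 to 13 exon reads per library, could not show a difference in exon reads at this depth.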

Other observations

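The lanes of Fcrla in the Klf2 library and of Tyrobp in the BFP library varied more than those of the other members, with chi-square values per degree of freedom of 3.75 and 2.68. For Faim3, Pigr and Lilrb4 these values were 0.538, 0.123 and 0.747 in the Klf2 library and 0.150, 0.280 and 0.488 in the BFP library.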
